A study of Mus musculus with 4 samples.

Results

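The genes described here build sterols and fatty acids, or sense the sterol level that sets their output. They were taken as a fixed list of 33 mouse genes, matched by symbol to the deposited expression table. A row was found for 32 of them, out of 37305 rows in all, and the expression of Hmgcs1, which makes HMG-CoA, is not analysed here. The cells were primary natural killer (NK) cells isolated from spleens of C57BL/6 mice at postnatal day 56. All 4 libraries came from cells kept for 24 hours in recombinant murine IL-15 at 50 ng/ml, the cytokine that sustains NK cells in culture. In the control group (2 libraries) the cells then received mock treatment for another 24 hours, and in the DKK2 group (2 libraries) they received DKK2 at 200 ng/ml for the same time. DKK2, a secreted member of the Dickkopf family, modulates Wnt signalling at the LRP co-receptors. Whether the replicates were separate animals or cultures is not given, so the spread that p-values rest on is that between libraries and may be technical.

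Cholesterol synthesis starts from acetyl-CoA, runs through mevalonate to the isoprenoid farnesyl diphosphate, and continues through squalene and lanosterol to cholesterol. Fatty acid synthesis uses the same acetyl-CoA, which is joined by fatty acid synthase into saturated chains that elongases and desaturases then modify. Both arms are transcribed under SREBP factors, which are held in the endoplasmic reticulum by SCAP and the INSIG proteins while sterols are plentiful and are released to the nucleus when sterols run low. In lymphocytes these enzymes supply membrane for growth, and in NK cells SREBP activity is known to be needed for the metabolic response to cytokines.

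Levels are given as FPKM (fragments scaled by transcript length and library size), which allows levels of different genes to be set side by side. All 32 genes had a mean of at least 1 FPKM and were tested, among 12275 such rows. Fragment totals are not given, but the spacing of low values puts the other libraries at 0.351 to 0.401 of the depth of control replicate 1. The 9 NK markers examined, among them Ncr1, Eomes and Gzmb, were above 0 in every library. Their median log2 fold change was 0.08, with 5 of 9 higher, and between -0.13 and -0.05 when any 1 library was left out. Their sum was lower with DKK2, at 9937 and 9561 FPKM in replicates 1 and 2, against 15705 and 13238 FPKM in the controls. Most of it was Gzmb, at 6895 and 6115 FPKM against 11543 and 9908.5 FPKM. Gzmb and Prf1 were the 2 of 9 below both controls in both DKK2 libraries, where 14.8% of all genes tested were, and 0 were above both. Markers of other spleen cells were present as well, and 35 of 37 were lowest in control replicate 1. Neutrophil markers summed to 1.04 and 61.4 FPKM in the controls (Camp, Ltf and Elane at 0 in replicate 1) and to 3357 and 119 FPKM with DKK2, replicate 1 first here and throughout. Monocyte and macrophage markers summed to 465 and 706 FPKM against 1334 and 848 FPKM (C1qa and C1qc among those at 0 in control replicate 1). Ccr2 was the largest part of that sum in both controls and differed little, at 352 and 354 FPKM against 461 and 311 FPKM. Lyz2 differed far more than the sum, at 0.889 and 142 FPKM against 552 and 209 FPKM. T cell markers summed to 28.6 and 126 FPKM against 224 and 173 FPKM (Cd8a at 0 in control replicate 1). Cd3g was the largest part of the T cell sum in every library, at 23.1 and 87.3 FPKM against 169 and 117 FPKM. Cd4, Cd8a and Cd5 were instead lower in DKK2 replicate 1 than in control replicate 2. Cd4 was at 0.00566 and 1.59 FPKM against 0.234 and 2.95 FPKM. B cell markers summed to 0.64 and 19 FPKM against 4.51 and 31.7 FPKM. Dendritic cell markers had their highest sum in control replicate 1, at 35.8 and 14.3 FPKM against 30 and 25.8 FPKM. Most of that sum was Itgax, at 34 and 10.2 FPKM against 26.3 and 21.6 FPKM, while 4 of the 5 markers were lowest in control replicate 1. In bulk RNA a lower share of one cell type and less RNA per cell cannot be told apart, and the part of this cell mixture in the differences below was not tested.

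The sterol and fatty acid genes had lower mean levels in the DKK2 libraries almost throughout, but 1 library on each side carried much of that difference. Of the 32 genes, 31 had a lower mean and 1, Acss2, a higher one, where 56.4% of all genes tested had a lower mean. The median log2 fold change was -0.56, against -0.05 over all genes tested. None of the 32 passed limma (adjusted p = 1 for each, 0.0326% of all genes tested passed), and 4 had an unadjusted p under 0.05 (3 lower, 1 higher), against 0.766% and 1.08% of all genes. Both DKK2 libraries lay below both controls for 13 of the 32 genes, where 14.8% of all genes did so, and above both controls for 1, against 11.8%. Control replicate 1 held the highest value of 27 genes, and DKK2 replicate 1 the lowest value of 22. Among all 12275 genes tested these counts were 3882 and 4363.

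Set pair by pair, DKK2 replicate 1 minus control replicate 1 had a median of -0.78 (log2) over the 32 genes, and minus control replicate 2 it was -0.44. DKK2 replicate 2 minus control replicate 1 had a median of -0.47, and minus control replicate 2 it was 0.03, with 15 of 32 genes lower. The controls themselves differed by a median of -0.38 (control replicate 2 minus control replicate 1), with 30 of 32 genes lower in control replicate 2. Over all genes tested these 5 medians were -0.10, -0.03, -0.07, 0.05 and -0.08. Of all 12275 genes, 5384 were lower in DKK2 replicate 2 than in control replicate 2. In control replicate 2, 7098 were lower than in control replicate 1. The pairs share libraries and are not independent of each other. Without control replicate 1, 27 of the 32 genes kept a lower mean in the DKK2 group (median -0.31), and without DKK2 replicate 1, 23 did (median -0.17).

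**Figure D1:**
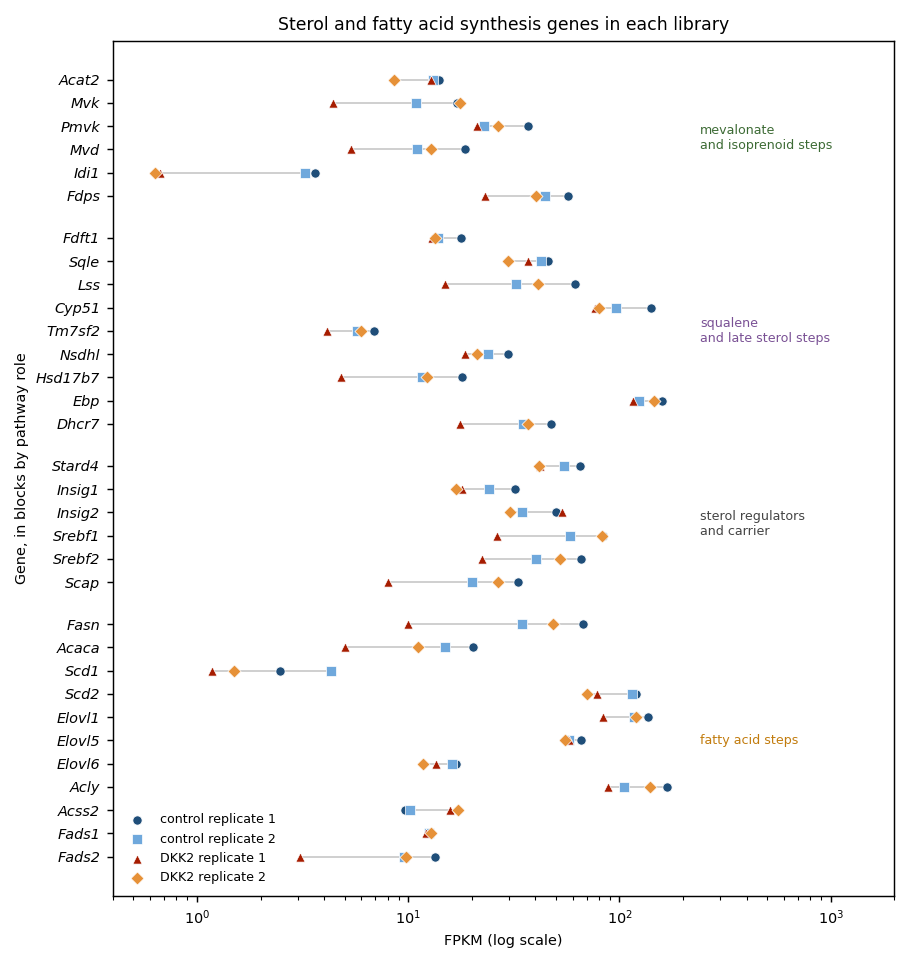
FPKM of each of the 32 genes on a log axis, 1 row per gene in blocks by pathway role, with 1 symbol for each of the 4 libraries and a grey line over their range. Control replicate 1 is the highest library for 27 genes and DKK2 replicate 1 the lowest for 22 (3882 and 4363 of all 12275 genes tested). Idi1 (3.63 and 3.23 against 0.666 and 0.631 FPKM) has the widest gap between groups that do not overlap.

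Promoter letters are shown for 5 of the genes as a description of sequence. The genes were listed by their role in pathways under SREBP factors, so motifs tied to SREBP are not independent of that choice. SREBP factors bind weakly alone and are known to act together with NF-Y, which binds the CCAAT box, and Sp1, which binds GC boxes. RefSeq promoters (GRCm38.p6) were at hand for 26 of the 33 genes, and the 250 bases before each start were searched on both strands, with overlapping matches counted and a gene with several promoters taken as holding a motif if any of them did. CCAAT was found for 20 of the 26 genes (76.9%), against 37.5% of all 27025 genes with a promoter. GGGCGG, a GC box, was found for 21 of the 26 (80.8%), against 35.4% of all genes. The sterol element letters TCACNCCAC were found for 1 of the 26, Hmgcs1, against 1.22% of all genes, which says only that these exact letters are not in the other windows. CACGTG, an E-box that SREBP factors can also bind, was found for 5 of the 26 (19.2%), against 6.86% of all genes. The 27025 genes were not limited to those expressed in these cells, while all 32 genes with a row were expressed. The higher shares therefore cannot be read as particular to this set, and expressed genes alone were not compared. The first 3 promoters belong to genes low in both DKK2 libraries and the last 2 to genes low in DKK2 replicate 1 only. Capitals mark CCAAT or its reverse complement ATTGG, and each sequence runs 5′ to 3′ on the gene's strand, ending 1 base before the start.
Idi1, chr13:8885356-8885605, plus strand: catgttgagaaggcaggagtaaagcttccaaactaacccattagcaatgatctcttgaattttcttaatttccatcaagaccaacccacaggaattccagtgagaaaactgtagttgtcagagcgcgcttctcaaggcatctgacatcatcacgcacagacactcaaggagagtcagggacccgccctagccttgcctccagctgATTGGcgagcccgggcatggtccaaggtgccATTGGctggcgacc
Cyp51, chr5:4104698-4104947, minus strand: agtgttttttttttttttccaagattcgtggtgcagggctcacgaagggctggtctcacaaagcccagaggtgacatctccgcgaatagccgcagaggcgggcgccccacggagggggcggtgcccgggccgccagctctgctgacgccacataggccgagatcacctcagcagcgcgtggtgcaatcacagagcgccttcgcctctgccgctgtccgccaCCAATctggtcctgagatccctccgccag
Insig1, chr5:28071162-28071411, plus strand: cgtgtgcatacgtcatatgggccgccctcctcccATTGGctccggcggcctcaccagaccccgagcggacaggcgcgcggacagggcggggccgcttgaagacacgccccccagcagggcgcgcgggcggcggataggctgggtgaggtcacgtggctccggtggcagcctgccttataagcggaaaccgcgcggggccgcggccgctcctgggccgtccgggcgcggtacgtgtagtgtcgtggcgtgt
Mvk, chr5:114444019-114444268, plus strand: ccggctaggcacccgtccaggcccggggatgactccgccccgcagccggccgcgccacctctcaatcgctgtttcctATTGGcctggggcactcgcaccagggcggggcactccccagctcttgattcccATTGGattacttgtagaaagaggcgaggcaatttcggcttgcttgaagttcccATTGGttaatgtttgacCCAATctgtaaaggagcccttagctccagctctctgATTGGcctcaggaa
Fasn, chr11:120824548-120824797, minus strand: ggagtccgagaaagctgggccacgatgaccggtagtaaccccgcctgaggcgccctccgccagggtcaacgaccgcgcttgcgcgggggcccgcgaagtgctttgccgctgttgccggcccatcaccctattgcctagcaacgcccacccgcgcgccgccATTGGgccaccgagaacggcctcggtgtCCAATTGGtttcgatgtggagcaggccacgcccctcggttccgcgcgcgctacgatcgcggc
Mvk carries 5 CCAAT matches between 10 and 173 bases before its start, Fasn 3, Idi1 2, and Cyp51 and Insig1 1 each. These 5 promoters were picked with the expression values in view, so their match counts are given as a description only.

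The enzymes from acetyl-CoA to farnesyl diphosphate had a median log2 fold change of -0.63, and all 6 with a row were lower in the mean. That median was -0.33 without control replicate 1, and -0.23 or -1.18 when DKK2 replicate 1 or 2 was left out. Idi1 makes dimethylallyl diphosphate, the primer of all isoprenoid chains, by isomerising isopentenyl diphosphate. It was at 3.63 and 3.23 FPKM in control libraries and at 0.666 and 0.631 FPKM with DKK2 (log2 fold change -1.43 ± 0.34 SE, 95% interval -2.31 to -0.54). The groups lay far apart and the replicates close together, yet the gene did not pass limma over all genes (unadjusted p = 0.00896, adjusted p = 1). The row is uncertain because a processed pseudogene, Gm13502, matches 684 bases of the Idi1 transcript at 100% identity. The Gm13502 row was at 13.9 and 18.5 FPKM in control libraries and at 9.96 and 9.55 FPKM with DKK2 (-0.66 ± 0.27), above the Idi1 row in every library. Fragments of the 2 cannot be told apart there, so the size of the Idi1 difference depends on how they were shared between the rows, while both rows were lower in both DKK2 libraries. When any 1 library was left out the Idi1 fold change lay between -1.49 and -1.36, but at this low level it depended on the pseudocount, with -2.24 at 0.1 and -0.58 at 5.

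Farnesyl diphosphate synthase, Fdps, joins these units and feeds both sterols and protein prenylation. It was at 57 and 44.5 FPKM in control libraries and at 23.1 and 40.2 FPKM with DKK2 (-0.71 ± 0.36). The groups did not overlap, but DKK2 replicate 2 lay close to control replicate 2. A processed pseudogene of 98.9% identity over 1062 bases, Gm3571, was at 23.4 and 20.5 FPKM against 12.1 and 19 FPKM. Exons of another gene, Gm43738, overlap those of Fdps on the same strand over 1124 bases. Acat2, the cytosolic thiolase that condenses acetyl-CoA in the first step, was at 13.9 and 13.1 FPKM against 12.8 and 8.56 FPKM (-0.34 ± 0.29). Here DKK2 replicate 2 was the low library and DKK2 replicate 1 lay just under the controls. A stretch of 445 bases is 98.7% identical to a transcript of the chaperonin gene Tcp1, whose row was far higher, at 467 and 586 FPKM against 492 and 372 FPKM, and also lowest in DKK2 replicate 2.

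For the kinases and the decarboxylase of mevalonate the groups overlapped. Mevalonate kinase, Mvk, was at 17 and 10.9 FPKM in control libraries and at 4.41 and 17.5 FPKM with DKK2 (-0.55 ± 0.64). The highest and the lowest of the 4 values were thus both DKK2 libraries. For the decarboxylase Mvd the values were 18.5 and 11 FPKM against 5.34 and 12.9 FPKM (-0.71 ± 0.49). The second kinase, Pmvk, was at 36.8 and 22.8 FPKM against 21.2 and 26.5 FPKM (-0.28 ± 0.33). For Mvd and Pmvk DKK2 replicate 2 lay between the controls.

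From squalene to cholesterol all 9 genes were lower in the mean, with a median of -0.41 that was -0.21 without DKK2 replicate 1. Cyp51, the demethylase of lanosterol, was the most abundant of those whose groups did not overlap, at 141 and 96.2 FPKM in control libraries and at 76.8 and 79.9 FPKM with DKK2 (-0.57 ± 0.29). The DKK2 libraries nearly coincided, and the controls differed more between themselves than from the DKK2 pair at their nearest. Squalene epoxidase, Sqle, a rate-limiting oxygenation step, was at 46.1 and 42.7 FPKM against 36.7 and 29.8 FPKM (-0.41 ± 0.25). Nsdhl, a dehydrogenase that helps remove the methyl groups at carbon 4 of the ring, was at 29.6 and 23.7 FPKM against 18.7 and 21.2 FPKM (-0.40 ± 0.26). Squalene synthase, Fdft1, was at 17.8 and 13.9 FPKM against 12.9 and 13.5 FPKM (-0.24 ± 0.26), so that only control replicate 1 stood apart. Its exons overlap those of Ctsb, a lysosomal protease gene on the opposite strand, over 774 bases, and whether strand was used in counting is not given. Gm6781, a pseudogene of 97.4% identity over 1249 bases, had 13.5 and 11.8 FPKM against 7.1 and 10.9 FPKM. Ctsb ran the other way, at 35.7 and 74.8 FPKM against 103 and 129 FPKM.

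The other late enzymes had DKK2 replicate 2 inside the range of the controls. Lanosterol synthase, Lss, which closes the sterol rings, was at 61.6 and 32.3 FPKM against 15 and 41.3 FPKM (-0.81 ± 0.58). Hsd17b7, the ketone reductase of the same demethylation complex, was at 18 and 11.7 FPKM against 4.81 and 12.3 FPKM (-0.82 ± 0.49). Dhcr7, which reduces 7-dehydrocholesterol in the last step, was at 47.5 and 34.8 FPKM against 17.5 and 36.7 FPKM (-0.66 ± 0.42). For these 3 genes DKK2 replicate 1 was less than the lower control by a wide margin while DKK2 replicate 2 exceeded that control. Tm7sf2, a sterol C14 reductase, was at 6.87 and 5.7 FPKM against 4.11 and 6 FPKM (-0.28 ± 0.31). Exons of Vps51 overlap those of Tm7sf2 on the same strand over 532 bases, where strand cannot separate the fragments of the genes. Ebp, the sterol isomerase and the most abundant enzyme of this block, was at 159 and 124 FPKM against 116 and 146 FPKM (-0.11 ± 0.29).

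**Figure D2:**
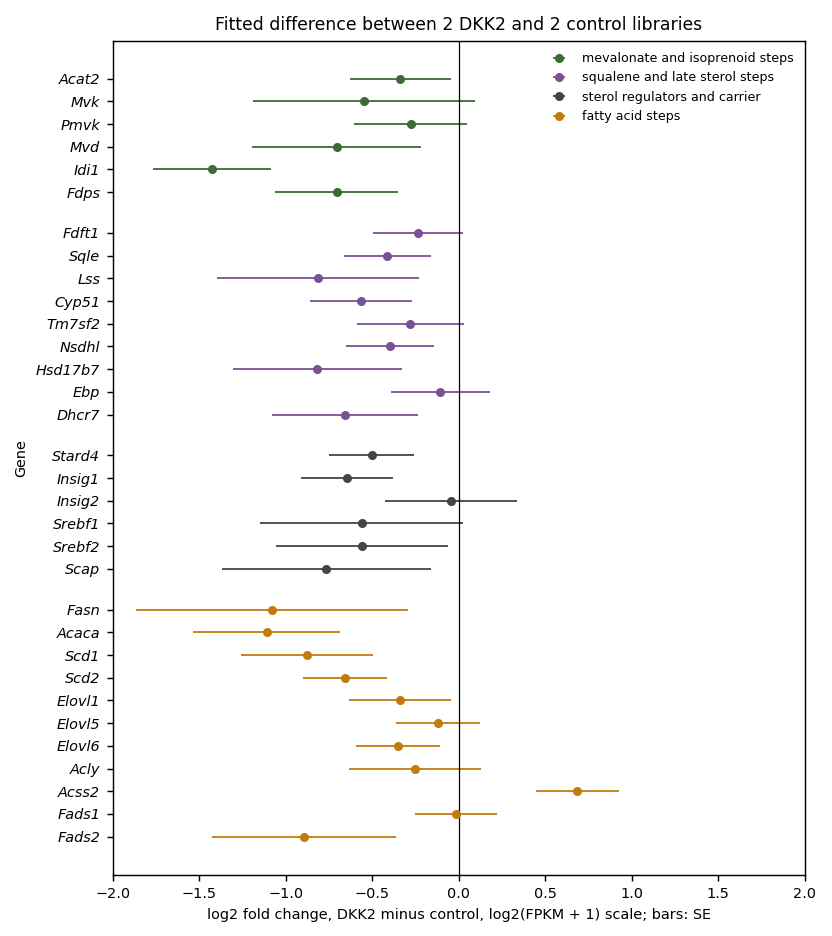
Log2 fold change (DKK2 minus control, log2(FPKM + 1) scale) of each gene from limma, with the standard error as a bar, coloured by pathway role. All points but Acss2 lie below 0, and the bars are widest for genes such as Fasn (-1.08 ± 0.79) and Mvk (-0.55 ± 0.64) whose DKK2 libraries differed most.

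All 6 regulators and carriers were lower in the mean, with a median of -0.56 that was -0.34 without control replicate 1, and -0.21 or -0.88 when DKK2 replicate 1 or 2 was left out. Among them, Insig1 and the sterol carrier gene Stard4 were low in both DKK2 libraries, while the SREBP genes themselves were low in 1. Insig1, which holds SCAP in the endoplasmic reticulum and is itself a target of SREBP, was at 32.1 and 24.1 FPKM in control libraries and at 18 and 16.8 FPKM with DKK2 (-0.65 ± 0.26). Stard4, which carries cholesterol between membranes and is also a target of SREBP2, was at 65.3 and 54.9 FPKM against 42 and 41.8 FPKM (-0.50 ± 0.24). In both genes the DKK2 libraries were close to each other and below both controls. Without any 1 library Insig1 stayed between -0.45 and -0.85 and Stard4 between -0.38 and -0.63.

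The SREBP genes and their escort varied with DKK2 replicate 1. Srebf1, which encodes the SREBP1 forms, was at 83.7 and 58 FPKM in control libraries and at 26.4 and 82.6 FPKM with DKK2 (-0.56 ± 0.59). Srebf2, whose product favours the sterol genes, was at 65.4 and 40.2 FPKM against 22.4 and 52.6 FPKM (-0.56 ± 0.50). Scap was at 33.2 and 20.1 FPKM against 8.05 and 26.6 FPKM (-0.77 ± 0.61). In all 3, DKK2 replicate 1 was under both controls and DKK2 replicate 2 was between them. Without DKK2 replicate 1 their fold changes were 0.24, 0.03 and 0.04. Insig2, the INSIG gene that does not depend on SREBP in the same way, ran opposite in the DKK2 pair, at 50.1 and 34.7 FPKM in control libraries and 53.7 and 30.3 FPKM with DKK2 (-0.05 ± 0.38, and 0.02 after scaling to a common median). These are RNA levels, and cleavage of SREBP proteins was not measured.

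The genes of fatty acid synthesis were a varied block, with 10 of 11 lower in the mean and a median of -0.35 (-0.15 without DKK2 replicate 1, -0.58 without DKK2 replicate 2, -0.57 without control replicate 2). Scd2, the main stearoyl-CoA desaturase here, was at 119.7 and 115 FPKM in control libraries and at 78.2 and 70.1 FPKM with DKK2 (-0.66 ± 0.24, 95% interval -1.28 to -0.03, limma unadjusted p = 0.0422, adjusted p = 1). The controls were close to each other and both DKK2 libraries were lower. Its paralog Scd1 was far lower in level, at 2.47 and 4.33 FPKM against 1.18 and 1.5 FPKM (-0.88 ± 0.38, and -0.40 with a pseudocount of 5), and a stretch of 623 bases is 95.5% identical between their transcripts, so some fragments may have been shared. Acaca, the acetyl-CoA carboxylase that commits carbon to fatty acids, was at 20.4 and 14.9 FPKM against 5 and 11.1 FPKM (-1.11 ± 0.42). Both DKK2 libraries were below both controls, DKK2 replicate 1 by more. A processed pseudogene, Gm5182, matches 6118 bases of its transcript at 99.2% identity. Elovl6, which lengthens palmitate, was at 16.8 and 16.1 FPKM against 13.6 and 11.8 FPKM (-0.35 ± 0.24). Its pseudogene Gm11295, 97.4% identical over 805 bases, had 2.52 and 1.33 FPKM against 1.03 and 1.91 FPKM.

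Fatty acid synthase, Fasn, had the widest gap between the DKK2 libraries of all 32 genes. It was at 67.3 and 34.5 FPKM in control libraries and at 10 and 48.3 FPKM with DKK2 (-1.08 ± 0.79, and 0.0013 without DKK2 replicate 1). DKK2 replicate 2 lay between the controls. Fads2, the delta-6 desaturase of polyunsaturated fatty acids, was at 13.4 and 9.52 FPKM against 3.07 and 9.75 FPKM (-0.90 ± 0.53), again with 1 low library. Acly, which splits citrate into cytosolic acetyl-CoA, was at 168 and 105 FPKM against 88.6 and 139 FPKM (-0.26 ± 0.38). Elovl1, an elongase of very long chains, was at 137 and 117 FPKM against 83.3 and 119.1 FPKM (-0.34 ± 0.30). Elovl5, an elongase of polyunsaturated chains, was at 65.8 and 57.6 FPKM against 57.7 and 55.3 FPKM (-0.12 ± 0.24). Fads1, the delta-5 desaturase, differed little, at 12.7 and 12.5 FPKM against 12.1 and 12.8 FPKM (-0.01 ± 0.24, 95% interval -0.63 to 0.60). Its sign turned to 0.05 after scaling to a common median.

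Acss2 was the exception in direction. This enzyme makes cytosolic and nuclear acetyl-CoA from acetate, an alternative to the citrate route of Acly. It was at 9.63 and 10.2 FPKM in control libraries and at 15.8 and 17.3 FPKM with DKK2 (0.68 ± 0.24, 95% interval 0.07 to 1.30, limma unadjusted p = 0.0363, adjusted p = 1). Both DKK2 libraries were above both controls, and the fold change stayed between 0.62 and 0.75 when any 1 library was left out. Exons of the glutathione synthetase gene Gss overlap it on the opposite strand over 395 bases, and the Gss values were 11 and 14 FPKM against 16.1 and 13.4 FPKM.

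The gap between the DKK2 libraries differed widely among the genes. For 11 genes (Mvk, Mvd, Lss, Hsd17b7, Dhcr7, Srebf1, Srebf2, Scap, Fasn, Acaca and Fads2) DKK2 replicate 1 was lower than DKK2 replicate 2 by over 1 on the log2 scale, a limit chosen after the values were seen. Such a gap was present in 9.03% of all genes tested. Acaca (-1.01) was just inside that limit and Fdps (-0.77) was the next outside it.

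**Figure D3:**
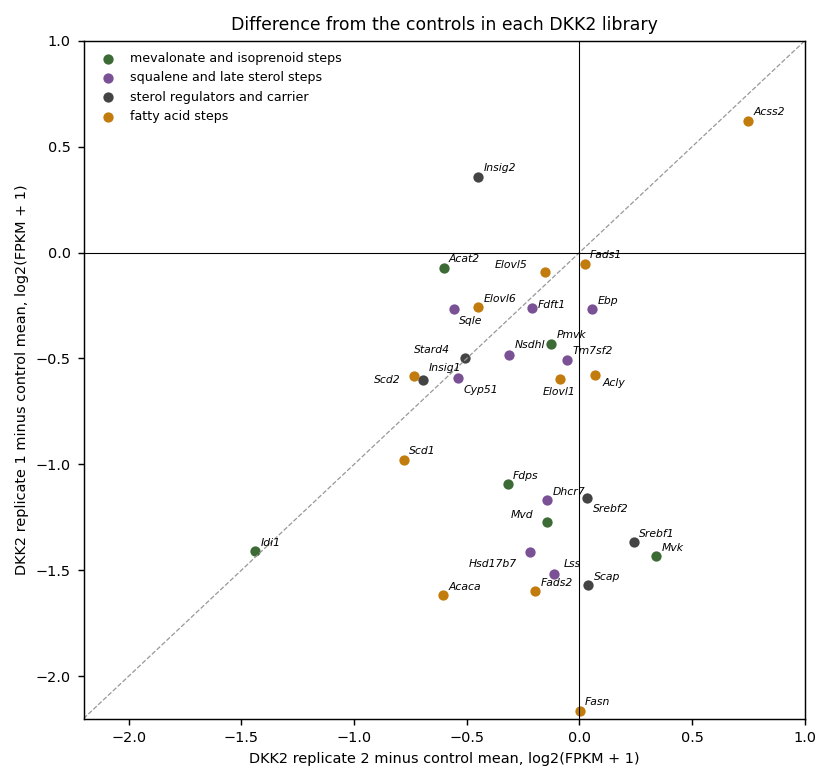
Each gene's difference from the mean of the controls in DKK2 replicate 2 (x axis) and DKK2 replicate 1 (y axis), on the log2(FPKM + 1) scale, with a dashed line where both are equal. Idi1, Scd1, Insig1, Scd2, Stard4 and Cyp51 lie near the line, while Fasn, Scap, Srebf1, Srebf2 and Mvk lie far below it with DKK2 replicate 2 at or above the control mean.

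Base composition moved with the same gap. The GC content of the transcript had a median of 57.9% (43.9% to 59.6%) in the 11 genes and 49.5% (41.9% to 57%) in the 21. Over the 11801 genes tested that had a GC value, the median of DKK2 replicate 1 minus DKK2 replicate 2 went from 0.41 to -0.65 between the lowest and the highest of 10 bins by GC content. Control replicate 2 minus control replicate 1 ran from 0.18 to -0.44 over the same bins. Across genes, which share their libraries and are not replicates, Spearman's rho between GC content and the gap of the DKK2 libraries was -0.51 for all genes with a value and -0.69 for the 32. After each library was centred within bins of GC content, a step chosen after the data were seen, the median gap of the 11 genes was -1.01 where it had been -1.40. Those genes were chosen for their gap, so both values are descriptions, and the part of base composition in the gap was not tested. The median fold change of all 32 genes after centring was -0.43, with 30 lower in the mean.

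**Figure D4:**
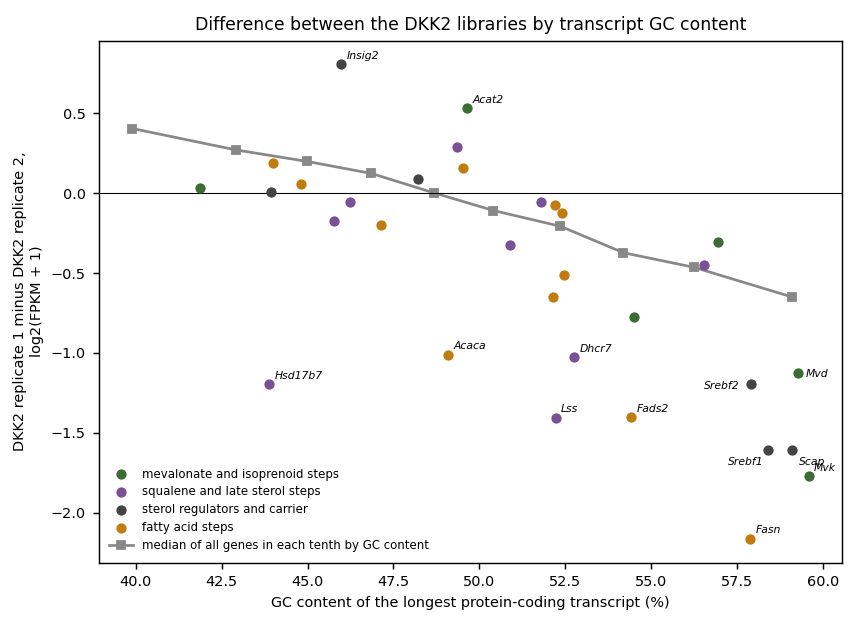
DKK2 replicate 1 minus DKK2 replicate 2 (log2(FPKM + 1)) of each of the 32 genes against the GC content of its longest protein-coding transcript, with grey squares for the median of all genes tested in each of 10 bins by GC content. The grey line falls from 0.41 to -0.65, and the 11 genes with a gap below -1, Fasn lowest at -2.16, lie under it.

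Other lists of the same pathways, drawn up by role, put these genes in context. Further sterol genes had a median log2 fold change of -0.40, and 6 of 7 tested were lower, none past limma. Without any 1 library that median lay between -0.74 (without control replicate 2) and -0.21 (without control replicate 1), and it was -0.25 without DKK2 replicate 1. Both DKK2 libraries lay below both controls for 2 of the 7, against 14.8% of all genes tested.

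Genes of SREBP processing and turnover were lower in 10 of 12 cases with a smaller median of -0.15, and the 2 of 12 that were below both controls in both DKK2 libraries are near the share of all genes. The branch that makes prenyl groups, dolichol and ubiquinone from the same isoprenoids had a median of -0.19, with 12 of 16 lower (from -0.29 without control replicate 2 to -0.10 without control replicate 1, and -0.11 without DKK2 replicate 2). In 3 of the 16 both DKK2 libraries lay below both controls, against 14.8% of all genes tested, and in 0 above both, against 11.8%. Pggt1b, a subunit of a protein prenyltransferase, was at 11.5 and 12.2 FPKM against 8 and 7.57 FPKM (-0.55 ± 0.24), while Trit1, a tRNA prenyltransferase, was at 6.64 and 11 FPKM against 19.3 and 10.4 FPKM (0.67 ± 0.41).

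Sterol export and its LXR regulators had a median of 0.19, with 6 of 10 higher (0.36 without DKK2 replicate 1 and 0.11 without DKK2 replicate 2). In 4 of the 10 both DKK2 libraries lay above both controls, against 11.8% of all genes tested, and in 0 below both, against 14.8%. The largest differences were in genes that macrophages express strongly. Apoe was at 0.187 and 4.24 FPKM in control libraries and at 8.82 and 10.3 FPKM with DKK2 (2.08 ± 0.74), and Smpdl3a at 2.61 and 10.7 FPKM against 25.4 and 14.8 FPKM (1.66 ± 0.64). Both were lowest in control replicate 1, as were 8 of the 9 monocyte and macrophage markers, and the part of those cells was not tested. Sterol transport and ester genes had a median of 0.06 (5 of 15 lower), between 0.02 and 0.12 when any 1 library was left out. Among them the lipoprotein receptors Lrp8 (9.81 and 6.07 FPKM against 3.07 and 4.41 FPKM, -0.90 ± 0.35) and Scarb1 (15.2 and 13.6 FPKM against 5.56 and 10.5 FPKM, -0.83 ± 0.35) were below both controls in both DKK2 libraries. These were 2 of the 15, near the 14.8% of all genes tested. Another 3 of the 15 were above both controls, where 11.8% of all genes were. Of those, Lipa differed most, at 19.9 and 27.6 FPKM against 41.3 and 32.3 FPKM (0.62 ± 0.29).

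Further genes of fatty acid and lipid synthesis had a median of -0.07, with 14 of 22 lower, near the 56.4% of all genes, and between -0.16 and -0.0077 when any 1 library was left out. In 4 of the 22 both DKK2 libraries lay below both controls (14.8% of all genes tested), and in 2 above both (11.8%). Acsl3, which activates fatty acids for lipid droplets, was at 19.6 and 13.6 FPKM against 13.2 and 6.62 FPKM (-0.74 ± 0.40). Acsl1, its paralog, was at 4.6 and 14.4 FPKM against 13.6 and 22.4 FPKM (0.99 ± 0.57). Genes of fatty acid oxidation, the opposing pathway, had a median of 0.10, with 16 of 22 higher, and between 0.04 and 0.18 when any 1 library was left out. Of these 22, 5 were above both controls in both DKK2 libraries and 1 was below both, against the same shares of all genes. Decr1, a reductase needed to oxidise unsaturated chains, was at 9.94 and 11.7 FPKM against 18.4 and 12.3 FPKM (0.45 ± 0.30). No gene of these lists passed limma (adjusted p = 1 for each), and the lists were not tested against each other.

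**Figure D5:**
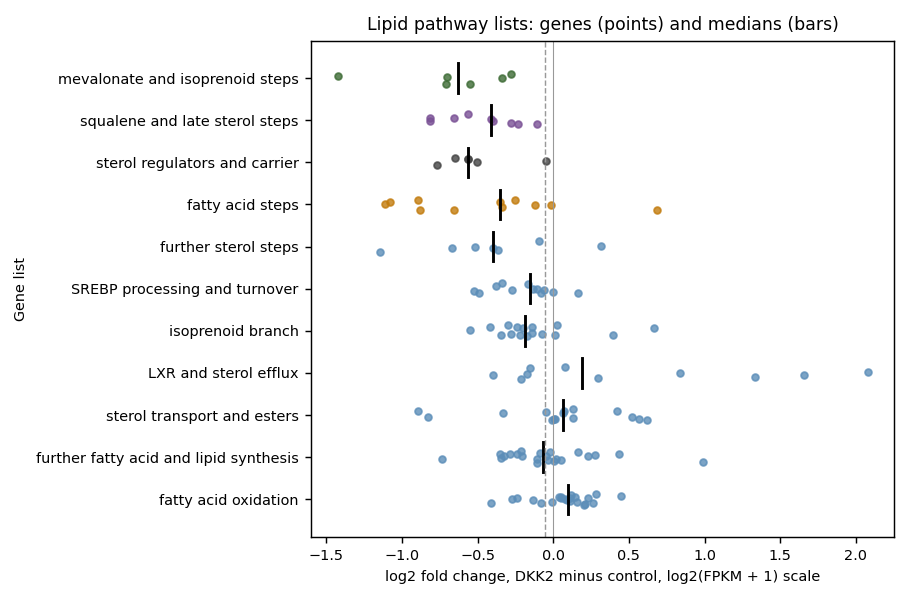
Log2 fold change (DKK2 minus control, log2(FPKM + 1) scale) of every tested gene in each lipid list, with points spread vertically for legibility, a black bar for each list's median and a dashed line at the median of all genes tested (-0.05). The 4 blocks of listed genes, regulators and carrier among them, have medians from -0.63 to -0.35, further sterol genes -0.40, and fatty acid oxidation 0.10.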

How the data were processed

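The authors deposited 1 table of FPKM values per gene with 1 column for each of 4 libraries, per the file headers, although the table is named for RPKM. All value columns were matched to samples by name. The kit was strand-specific for total RNA, per the labels' protocols. Tools listed in the submitters' processing notes, without their roles, are edgeR, Cuffdiff 2.1.0, TopHat2 2.1.0 and CASAVA, and the build listed is mm9. The annotation, the use of strand and the sharing of multiply mapped fragments are not given in the sources used here. A listed 0 may be a failed estimate.

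Rows averaging 1 FPKM or more (12275) were compared as log2(FPKM + 1), which understates changes of low genes, with limma 3.58.1 in R 4.3.3 (lmFit, eBayes with trend, two-sided, Benjamini-Hochberg over all rows tested, threshold 0.05). SE is the standard error of the moderated fit, and the code was tested on simulated data. An exact permutation test of 2 against 2 libraries cannot pass the threshold, so none was run. Copies were sought with blastn 2.17.0 (at least 95% identity over 200 bases) in GENCODE M21 transcripts, which also gave GC content, for 96.1% of rows tested. Some genes of the other lists are not reported here. The GENCODE transcripts belong to GRCm38, so no position was carried to or from mm9. The members and lists were chosen with earlier results of these data known. Every member is named. From other lists at most the 3 tested genes with the largest absolute fold change are named. Alternatives covered the pseudocount, filter, scaling, trend, robust fit, biotype, repeated symbols, replicate block and each library left out.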

Additional observations from a re-analysis of the deposited data

How the results depend on the processing

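None of the 32 genes passed limma in any of the 16 alternatives, with a smallest adjusted p of 0.467, and 1 to 10 of them had an unadjusted p under 0.05. Of 382 gene values under the 12 alternatives that kept all libraries, 378 kept their direction. The exceptions were Insig2 (0.022 at a common median) and Fads1 (0.041 with quantile normalization, 0.049 at a common median, 0.018 after GC centring). Filter, trend, robust fit, biotype, repeated symbols and replicate block left every fold change that they gave as in the main fit. Only the pseudocount, scaling and GC centring could therefore turn a direction, and the count of 378 includes values that could not change. With 1 library left out, 115 of 128 values kept their direction. The 10 genes that did not had fold changes from -1.43 to 0.34 (Mvk), -0.61 to 0.054 (Pmvk), -0.29 to 0.074 (Ebp), -0.45 to 0.36 (Insig2), -1.37 to 0.24 (Srebf1), -1.16 to 0.034 (Srebf2), -1.57 to 0.039 (Scap), -2.16 to 0.0013 (Fasn), -0.59 to 0.081 (Acly) and -0.052 to 0.023 (Fads1). The median of all 32 then ranged from -0.66 to -0.17, the latter without DKK2 replicate 1. That of the mevalonate block ranged from -1.18 (without DKK2 replicate 2) to -0.23 (without DKK2 replicate 1). With a pseudocount of 5 the fold changes of Idi1, Mvk, Tm7sf2, Scd1 and Fads2 were over 1.5 times smaller. A lone library in a group is assumed to vary like the others.

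Over all genes, 4 passed limma. With no filter, among protein-coding genes alone and without any 1 library, 0 passed (949, 196 and 150 to 855 at an unadjusted p under 0.05), and 2 passed after GC centring. The cause was not tested. With the replicate block 8 passed and no member did. The labels state no blocking, so the replicate numbers were not taken as pairs. The deviations of same-numbered libraries had r = 0.01 across genes, which cannot decide on pairing. With rising GC content, replicate 1 minus replicate 2 fell in the DKK2 group and rose in the controls. Whether same-numbered libraries share an animal, culture or day is not known here. Depth limits the low genes Idi1 and Scd1 most, and fragment numbers behind FPKM are not known here.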
